A study of Mus musculus with 6 samples.

Results

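The 10 genes described here encode the AP-1 transcription factor JunD and the Jun, Fos and ATF proteins known as its dimer partners or relatives: Jund, Jun, Junb, Fos, Fosb, Fosl1, Fosl2, Atf3, Jdp2 and Atf2. They were taken by symbol from the 53379 gene identifiers counted in each library, and all 10 were found and passed the low-count filter. RNA was measured by RNA-seq in Min6, a mouse insulinoma line used in place of pancreatic beta cells. Cells of 3 libraries carried a gRNA against JunD and cells of the other 3 a gRNA against the Rosa26 locus, the negative control, both delivered with the lentiviral vector lentiCRISPR v2. All 6 libraries were from cells at passage 28, grown in high glucose DMEM, held under glucolipotoxic conditions (excess glucose and fatty acid) for 30 hours and harvested 8 days after transduction, so both groups shared the vector and the stress. The labels do not say whether the replicates were separate transductions, whether transduced cells were selected or cloned, or where in Jund the gRNA cuts, and p-values cover no more than the variation among these libraries, part of which may be technical.

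AP-1 is a dimer of proteins that hold a basic region, which contacts DNA, and a leucine zipper, which pairs the subunits. Jun proteins can pair with one another, with Fos proteins and with some ATF proteins, whereas Fos proteins need a Jun partner. Jun-Fos dimers prefer the TPA response element and Jun-ATF dimers the cAMP response element, of which TGACGTCA is the full form. The TPA response element was searched here as TGANTCA, with N any base, a pattern broader than the element itself. In the beta cell, AP-1 genes are known to respond to glucose, calcium signals, cytokines and metabolic stress, and JunD is the family member bound by menin, the product of the endocrine tumour gene Men1.

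The start regions of 3 members are shown because each holds a variant of these elements, and because Atf3 was lower with the JunD gRNA while Jun and Fos were not. They were thus picked with these levels known, and a link between motif and level was not tested. A window of Jdp2, which gave no call, also holds such a variant and is not shown. Each sequence below is the 250 bases before the RefSeq start (GRCm38.p6), 5′ to 3′ on the gene's own strand, in lower case with the matched motif in capitals.
Atf3 (chr1:191183334-191183583, minus strand): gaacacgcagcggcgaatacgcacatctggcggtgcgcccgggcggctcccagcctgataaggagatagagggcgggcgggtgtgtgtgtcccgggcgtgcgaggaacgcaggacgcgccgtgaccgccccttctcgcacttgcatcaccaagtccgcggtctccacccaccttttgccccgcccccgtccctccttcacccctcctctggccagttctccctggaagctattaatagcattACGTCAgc
Jun (chr4:95052223-95052472, minus strand): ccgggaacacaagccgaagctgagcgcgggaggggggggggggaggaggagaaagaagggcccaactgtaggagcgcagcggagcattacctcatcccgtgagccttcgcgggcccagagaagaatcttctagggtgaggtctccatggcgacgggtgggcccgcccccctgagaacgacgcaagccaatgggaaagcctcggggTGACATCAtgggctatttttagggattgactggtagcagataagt
Fos (chr12:85473640-85473889, plus strand): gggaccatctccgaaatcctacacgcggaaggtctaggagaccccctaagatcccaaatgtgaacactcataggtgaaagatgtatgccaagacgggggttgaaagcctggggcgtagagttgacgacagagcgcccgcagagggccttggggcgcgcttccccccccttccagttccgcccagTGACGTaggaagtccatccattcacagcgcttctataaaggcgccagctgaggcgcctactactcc

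The motifs searched on both strands of 300-base windows (250 before and 50 after the start) were TGANTCA, TGACNTCA, which takes in the full form TGACGTCA, its core TGACGT, which can lie inside TGACNTCA, and the CArG box of serum response factor. Among 32851 windows in the RefSeq table, 7.81% held TGANTCA, 8.83% TGACNTCA, 1.79% TGACGTCA, 7.51% TGACGT and 1.63% a CArG box. Windows of 9 members were in the table, all but Fosl1. Jun held TGACATCA from base -45, and Atf3 held TGACGT on the opposite strand from base -8. Fos held TGACGT from base -66, and a second of the 3 windows of Jdp2 held it from base -114. The windows of Junb, Fosb, Fosl2 and Atf2 held none of these letters, and nor did that of Jund, which ends at base 70697788 of chromosome 8, upstream of the gene start at 70698949 in GENCODE, and may therefore miss the start in use. The Atf3 gene begins further upstream in GENCODE, at 191218039 on chromosome 1, so its window is that of an inner start. These matches describe the sequence and were not tested for binding.

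The cells carried the markers of their label. All 10 beta-cell markers averaged at least 1 CPM (a gene's counts per 1000000 counts of its library), with a summed level of 74500 to 80400 CPM in the JunD gRNA libraries and 41200 to 75900 CPM in the Rosa26 gRNA libraries. Alpha-cell markers summed to 652 to 684 CPM with the JunD gRNA and 529 to 693 CPM with the Rosa26 gRNA, ductal markers to 60.3 to 62.6 CPM with the JunD gRNA and 49.8 to 57.8 CPM with the Rosa26 gRNA, and leukocyte markers to at most 0.0403 CPM in any library, with Adgre1 and Cd3e at 0. Library totals were 41071566 to 49628813 counts with the JunD gRNA and 43408459 to 50024931 with the Rosa26 gRNA. Rosa26 gRNA replicate 1 stood apart: it lay at -66.6 on the first principal component (45.3% of the variance), with the other 5 libraries between 7.09 and 23.6, and the Spearman correlation across genes between its deviation and GC content was -0.504, against 0.262 to 0.417 in the JunD gRNA libraries and 0.0184 to 0.104 in Rosa26 gRNA replicates 2 and 3. Its part in each result was not tested beyond giving the result with and without it.

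With all 6 libraries no gene passed in edgeR's quasi-likelihood test at a Benjamini-Hochberg adjusted p under 0.05 (0 of 17767, 0.0%), and 2119 had an unadjusted p under 0.05 (11.9%). DESeq2 called 20 genes higher (0.113%) and 47 lower (0.265%) on the same genes, Jund and Atf3 among the lower ones. Without Rosa26 gRNA replicate 1, edgeR called 266 of 18296 genes higher with the JunD gRNA (1.45%) and 257 lower (1.4%). In what follows, "rose" and "fell" are used only for genes called in that fit on 5 libraries. It is an alternative to the main fit on all 6 libraries, in which none of those genes passed, and it leaves out a control library seen to stand apart. Of the 10 members 2 fell there, the targeted gene Jund among them, and 0 rose. Their median log2 fold change was -0.05, against -0.003 for all genes tested, and with all 6 libraries it was -0.02, against -0.006.

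Jund, the targeted gene, was lower in every JunD gRNA library than in any Rosa26 gRNA library, though its RNA was still readily detected. Its level was 22.6, 25.1 and 26.9 CPM with the JunD gRNA, against 39.3, 34.5 and 30.4 CPM with the Rosa26 gRNA. The groups did not overlap, and the highest value was in Rosa26 gRNA replicate 1. The log2 fold change was -0.47 ± 0.11 (SE, n = 3 each) with all 6 libraries, a level 0.724 times that of the control with a 95% interval of 0.611 to 0.857, and did not pass (edgeR adjusted p = 0.417). Without Rosa26 gRNA replicate 1 Jund fell by 0.38 ± 0.08 on the log2 scale (0.768 times, interval 0.688 to 0.858, edgeR adjusted p = 0.00773). Jund is an intronless gene of 1668 bases on chromosome 8 (70698949 to 70700616, plus strand, GRCm38) and the most GC-rich of the 10, at 67.1% of its transcript. With GC content and transcript length corrected per library, its log2 fold change was -0.67 on all 6 libraries (edgeR adjusted p = 0.0771) and -0.51 on the 5 (adjusted p = 1.88e-05). Of the 1668 exon bases of Jund, 877 overlap Gm11175 on the opposite strand, which had 0 counts. Whether the counting used strand is not stated, so the absolute level of Jund is uncertain, as are its shares and ratios given below. Counts over the gene report RNA and not DNA edits or protein, and in bulk RNA fewer cells with a transcript and less of it per cell cannot be told apart.

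The other Jun genes did not differ between the gRNAs beyond the spread between libraries. Jun, the founding member and a strong activator, stood at 156, 164 and 192 CPM with the JunD gRNA and at 169, 179 and 167 CPM with the Rosa26 gRNA. The lowest and the highest value both belonged to the JunD gRNA group, and the Rosa26 gRNA values lay between them. Its log2 fold change was 0.01 ± 0.09 (SE) with 6 libraries and -0.01 ± 0.06 with 5, where the 95% interval ran from 0.909 to 1.08 times the control (edgeR adjusted p = 0.979 and 0.95). Junb, which can activate or restrain AP-1 targets, stood at 88.4, 94.7 and 108 CPM with the JunD gRNA and at 81.0, 93.4 and 90.4 CPM with the Rosa26 gRNA, with overlapping groups. Its log2 fold change was 0.15 ± 0.10 with 6 libraries (0.955 to 1.3 times, edgeR adjusted p = 0.478) and 0.09 ± 0.06 with 5 (0.972 to 1.16 times, adjusted p = 0.549), and it turned to -0.05 and -0.01 after the GC and length correction of 6 and of 5 libraries. Its exons share 173 bases with those of Prdx2 on the opposite strand, and whether the counting used strand is not stated.

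**Figure D1:**
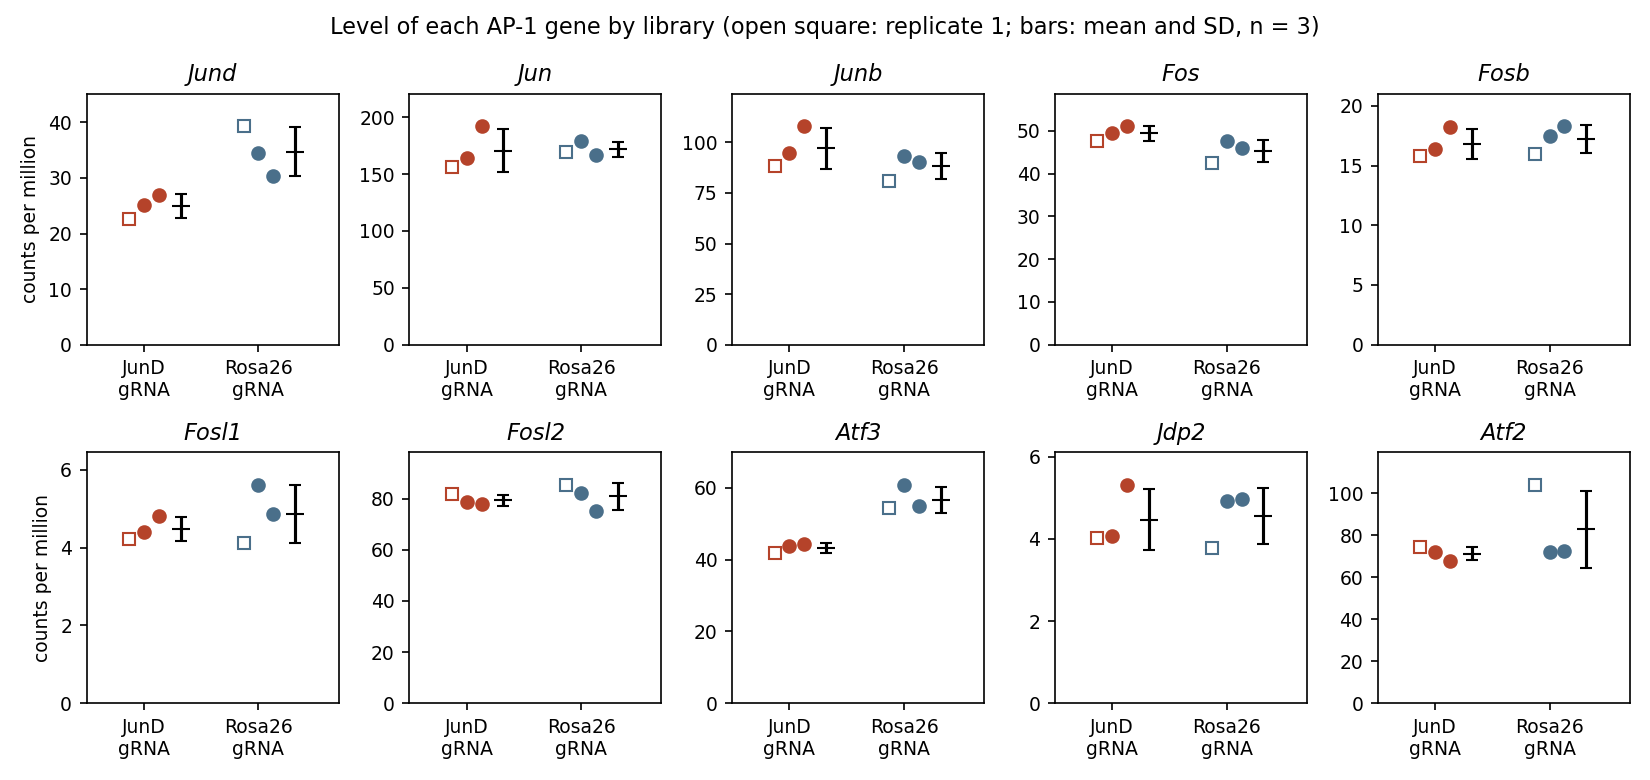
Level in CPM of each of the 10 genes in the 3 JunD gRNA (left) and 3 Rosa26 gRNA libraries (right), with mean and SD (n = 3); the open square is replicate 1 of its group. The groups lie apart for Jund and Atf3, with the JunD gRNA lower, and narrowly for Fos, with the JunD gRNA higher (47.7 CPM at the lowest against 47.6 CPM at the highest), while Atf2 is set apart by Rosa26 gRNA replicate 1 alone.

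None of the 4 Fos genes passed in either direction. Fos, the inducible partner that forms the classical Jun-Fos dimer, stood at 47.7, 49.6 and 51.1 CPM with the JunD gRNA and at 42.5, 47.6 and 45.9 CPM with the Rosa26 gRNA. The groups barely lay apart, and the log2 fold change was 0.14 ± 0.08 (SE) with 6 libraries and 0.09 ± 0.06 with 5 (edgeR adjusted p = 0.446 and 0.507). Fosl2, which encodes Fra-2, had 81.6, 78.5 and 77.8 CPM with the JunD gRNA and 85.4, 82.1 and 75.0 CPM with the Rosa26 gRNA. Its 95% interval was 0.941 to 1.09 times the control on 5 libraries (log2 fold change 0.02 ± 0.05, edgeR adjusted p = 0.918) and 0.888 to 1.11 times on 6. Fosb, an immediate-early gene, had 15.8 to 18.2 CPM with the JunD gRNA and 16.0 to 18.3 CPM with the Rosa26 gRNA.

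Fosl1, which encodes Fra-1, was among the rarest members and its change was poorly bounded. It had 4.23, 4.41 and 4.82 CPM with the JunD gRNA and 4.12, 5.62 and 4.87 CPM with the Rosa26 gRNA, the lowest value being that of Rosa26 gRNA replicate 1. Its log2 fold change was -0.10 ± 0.16 (SE) with 6 libraries and -0.22 ± 0.14 with 5, where the interval of 0.701 to 1.05 times leaves room for a fall as large as that of Jund (edgeR adjusted p = 0.756 and 0.496). Of its 2033 exon bases, 1163 overlap Ccdc85b on the opposite strand, so its counts are uncertain.

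Atf3, a stress-induced factor that pairs with Jun proteins and often represses, was the other member that stood lower with the JunD gRNA. It had 41.8, 43.8 and 44.5 CPM with the JunD gRNA and 54.3, 60.9 and 55.0 CPM with the Rosa26 gRNA. The groups lay far apart, and Rosa26 gRNA replicate 1 was the lowest of its group, so that unlike for Jund it did not widen the difference. The log2 fold change was -0.37 ± 0.08 (SE, n = 3 each) with 6 libraries (0.772 times, interval 0.682 to 0.874, edgeR adjusted p = 0.417), and without Rosa26 gRNA replicate 1 Atf3 fell by 0.41 ± 0.06 (0.751 times, interval 0.69 to 0.816, edgeR adjusted p = 0.0002). After the GC and length correction it passed with 6 libraries (-0.44, edgeR adjusted p = 0.0381, where 0.0507% of genes were called lower) and with 5 (-0.41, adjusted p = 2.68e-05, where 1.13% were).

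Atf2 and Jdp2 gave no call. Atf2, a widely expressed partner of Jun that JNK and p38 phosphorylate, had 74.2, 71.8 and 67.7 CPM with the JunD gRNA and 104, 72.0 and 72.3 CPM with the Rosa26 gRNA. The difference rested on Rosa26 gRNA replicate 1: the log2 fold change was -0.20 ± 0.13 (SE) with it and -0.01 ± 0.05 without it, with an interval of 0.919 to 1.07 times (edgeR adjusted p = 0.492 and 0.941). Atf2 was the least GC-rich member, at 40.5%. After the GC and length correction its log2 fold change was 0.04 on 6 libraries and 0.09 on 5. Whether GC content bears on the difference was not tested. Jdp2, a repressor that pairs with Jun proteins, had 4.02, 4.07 and 5.32 CPM with the JunD gRNA and 3.78, 4.92 and 4.98 CPM with the Rosa26 gRNA, and its interval of 0.732 to 1.13 times on 5 libraries was wide.

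**Figure D2:**
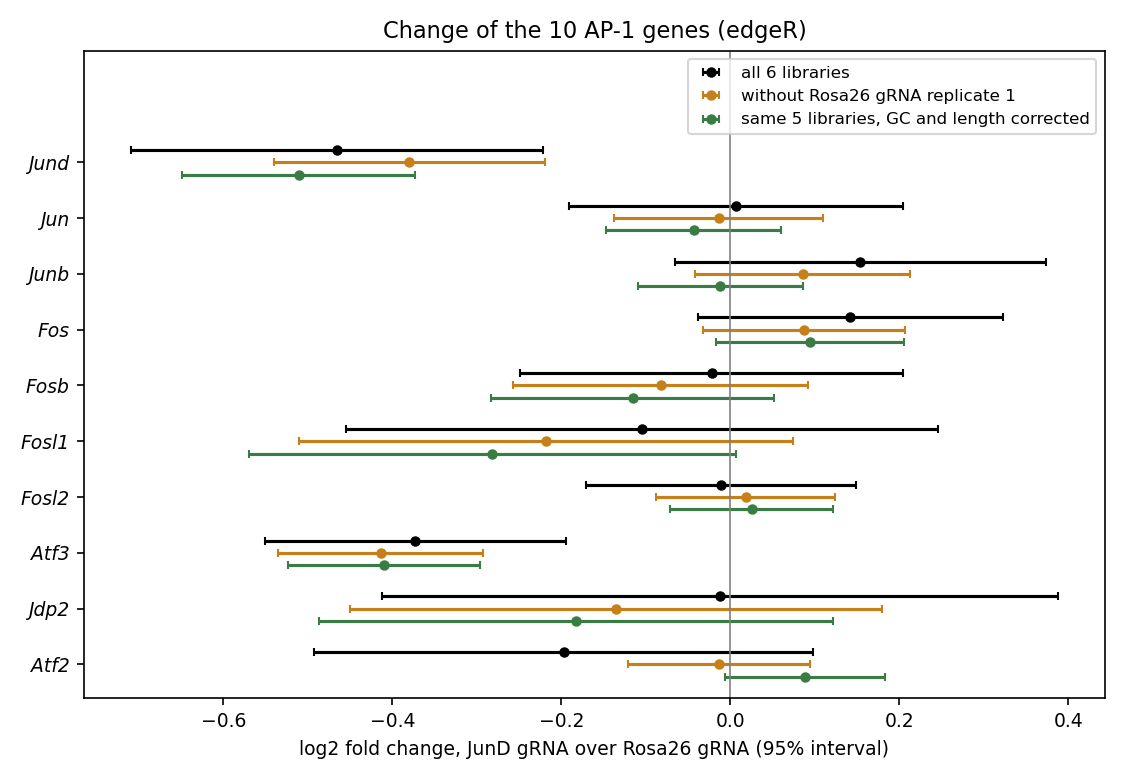
Log2 fold change (JunD gRNA over Rosa26 gRNA) with its 95% interval for each member in edgeR, with all 6 libraries (black), without Rosa26 gRNA replicate 1 (orange) and on the same 5 libraries with GC content and length corrected (green). The intervals of Jund and Atf3 lie below 0 in all 3 fits, and those of Jun, Junb, Fos, Fosb, Fosl1, Fosl2, Jdp2 and Atf2 include 0 in each.

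Counted over single genes, 3 of the 10 members had groups that did not overlap across all 6 libraries (Jund and Atf3 below, Fos above), while 24.8% of the 17767 genes tested had such groups on the TMM-scaled CPM (11.9% with the JunD gRNA below and 12.9% above). The 3 are therefore close to the background share. In the fit on 5 libraries 2 of 10 fell, against 1.4% of all genes. They were Jund, which the gRNA targets, and Atf3. The members were chosen with earlier results of these data known, so this count is a description and no test of the family.

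Per length of exon, Jun and Junb had higher mean levels than the other members in both groups. On the scale of counts per kilobase of exon scaled to the library total as for CPM (RPKM), the mean level with the JunD gRNA was 53.5 for Jun, 42.2 for Junb, 21.0 for Fos, 20.1 for Atf3, 14.9 for Jund, 8.7 for Atf2, 8.19 for Fosl2, 2.69 for Fosb, 2.21 for Fosl1 and 2.08 for Jdp2. In that group the libraries' ranges overlapped for the neighbours Fos and Atf3, Atf2 and Fosl2, and Fosl1 and Jdp2, which therefore have no settled order. With the Rosa26 gRNA the mean RPKM was 53.9 for Jun, 38.4 for Junb, 26.3 for Atf3, 20.8 for Jund and 19.3 for Fos, and 10.1 for Atf2, 8.35 for Fosl2, 2.76 for Fosb, 2.4 for Fosl1 and 2.12 for Jdp2. There the ranges overlapped for Jund and Fos, Atf2 and Fosl2, Fosb and Fosl1, and Fosl1 and Jdp2. Among 17743 tested genes with a length, Jun ranked above 95% by mean RPKM over the 6 libraries, Jund above 82.7% and Jdp2 above 37.2%. Scaled by the longest transcript in place of the merged exons, Atf2 had a higher mean than Jund with the JunD gRNA (16.9 against 14.9 RPKM) and Junb reached Jun (53.7 against 53.5), so these 2 orders depend on the length used.

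The summed level of the 10 genes differed little, at 165, 173 and 190 RPKM with the JunD gRNA and 183, 191 and 179 RPKM with the Rosa26 gRNA, with overlapping groups. The make-up of the sum differed more. Jund held 8.23%, 8.7% and 8.49% of it with the JunD gRNA, against 12.9%, 10.8% and 10.2% with the Rosa26 gRNA. The groups did not overlap, and the mean difference was -2.82 percentage points, or -2.03 without Rosa26 gRNA replicate 1 (two-sided exact permutation p = 0.1 on all 6 libraries, the smallest that 3 against 3 allows). Atf3 held 11.8%, 11.8% and 10.9% with the JunD gRNA and 13.8%, 14.8% and 14.3% with the Rosa26 gRNA (exact permutation p = 0.1). Junb held 24.0 ± 0.741% of the sum with the JunD gRNA and 20.8 ± 1.41% with the Rosa26 gRNA (SD, n = 3 each). Fos held 12.0 ± 0.476% with the JunD gRNA and 10.5 ± 0.528% with the Rosa26 gRNA, and Jun 30.4 ± 1.1% with the JunD gRNA and 29.2 ± 0.19% with the Rosa26 gRNA. In these 3 genes every JunD gRNA library stood above every Rosa26 gRNA library, but for Jun the groups overlapped when counts were scaled by the longest transcript (25.2%, 25.4% and 27.2% with the JunD gRNA, 24.7%, 25.3% and 25.0% with the Rosa26 gRNA, exact permutation p = 0.2) or not scaled by length (p = 0.5). Shares are bound to sum to the whole, so lower shares of Jund and Atf3 can raise the others even without any change in their own RNA. The mean RPKM with the JunD gRNA and the Rosa26 gRNA was 42.2 and 38.4 for Junb, 21.0 and 19.3 for Fos, and 53.5 and 53.9 for Jun. How much of each share difference came from the gene's own RNA was not tested. Fosb, Fosl1, Fosl2, Jdp2 and Atf2 had overlapping shares.

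**Figure D3:**
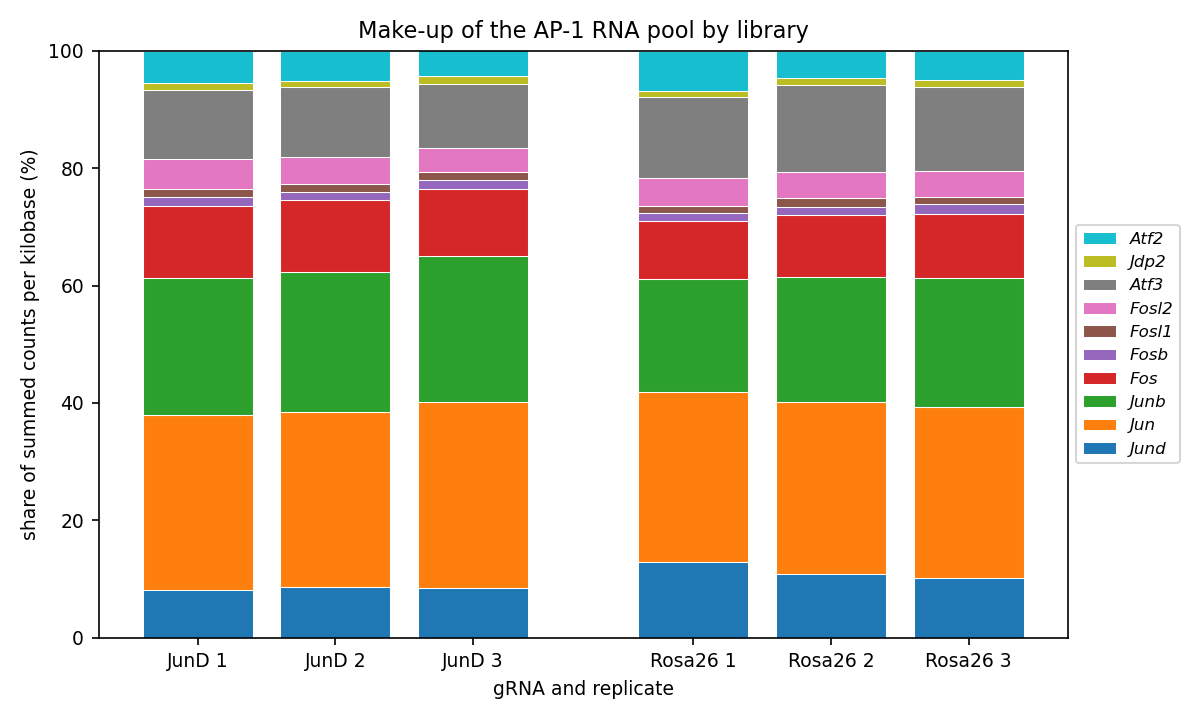
Share of each gene in the summed counts per kilobase of the 10 AP-1 genes, as a percentage of the sum, in each JunD gRNA library (left) and each Rosa26 gRNA library (right). The Jund segment at the bottom spans 8.23% to 8.7% with the JunD gRNA and 10.2% to 12.9% with the Rosa26 gRNA, and the grey Atf3 segment is also narrower with the JunD gRNA.

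Set against its closest relatives, Jund RNA was lower relative to both. Per 100 of Jun on the per-kilobase scale there were 27.7, 29.2 and 26.8 of Jund with the JunD gRNA and 44.3, 36.8 and 34.9 with the Rosa26 gRNA. Per 100 of Junb there were 35.2, 36.5 and 34.2 of Jund with the JunD gRNA and 67.0, 51.0 and 46.4 with the Rosa26 gRNA. In both ratios the groups lay apart, and Rosa26 gRNA replicate 1 was the highest library (exact permutation p = 0.1 each). These ratios do not depend on library scaling, but neither they nor the shares had the GC and length correction per library. With all 6 libraries, that correction moved the log2 fold change of Junb from 0.15 to -0.05. It moved that of Jun from 0.01 to -0.12 and that of Jund from -0.47 to -0.67. The Jun, Fos and ATF-type genes were also summed as classes. The 3 Jun genes held 62.9 ± 1.89% of the sum with the JunD gRNA and 61.3 ± 0.174% with the Rosa26 gRNA, with overlapping groups (SD, n = 3 each). The 4 Fos genes held 19.5 ± 0.911% with the JunD gRNA and 17.8 ± 0.52% with the Rosa26 gRNA, and Atf3, Jdp2 and Atf2 together 17.6 ± 0.976% with the JunD gRNA and 20.9 ± 0.66% with the Rosa26 gRNA. Without length scaling the shares of the 4 Fos genes overlapped between the groups. Their means were then 26.8% with the JunD gRNA and 25.3% with the Rosa26 gRNA (exact permutation p = 0.3).

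With clone names (Gm and Rik symbols) left out, the genes whose level followed that of Jund most closely over the 6 libraries were Tifa, Frrs1, Cald1, Gem and Zfp882. Likeness was the root-mean-square difference of log2 levels, each centred on its gene's mean. It ran from 0.022 (Tifa, an adaptor of NF-kB signalling) to 0.079 for these 5. The median was 0.275 over 11537 genes of at least 5 CPM, clone names included, and the ranks below are among those genes. Tifa stood at 5.05, 5.43 and 6.04 CPM with the JunD gRNA and at 9.1, 7.88 and 6.69 CPM with the Rosa26 gRNA, and Gem, a small GTPase that restrains calcium channels, at 18.1, 18.7 and 18.3 CPM with the JunD gRNA and at 27.2, 25.4 and 23.2 CPM with the Rosa26 gRNA. Without Rosa26 gRNA replicate 1 the list shared 1 gene with this one. Among the members of at least 5 CPM, Atf3 was the most like Jund, ranked 173 with a difference of 0.138, followed by Atf2 (ranked 2268), while Junb was the least like it (ranked 8552). All 6 libraries enter each of these values, and the ranks are a description.

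Around the family, genes of the AP-1 pathway were read from 5 lists that together held 140 genes, drawn up with earlier results of these data known. Among AP-1 target genes, 26 of 30 were tested, 7 fell and 2 rose on 5 libraries, against 1.4% and 1.45% of all genes, and 17 did not pass. Their median log2 fold change was -0.08 (all genes -0.003), and -0.15 with all 6 libraries (all genes -0.006), where 0 passed. The 3 with the smallest p on all 6 libraries were Ptgs2, Ccl2 and Plau. Ptgs2, the inducible cyclooxygenase COX-2, had 5.26, 4.65 and 4.61 CPM with the JunD gRNA and 11.9, 9.2 and 10.7 CPM with the Rosa26 gRNA, which is -1.11 ± 0.13 (SE) as a log2 fold change on 6 libraries (edgeR adjusted p = 0.115). Ccl2, a monocyte-attracting chemokine, had 2.08, 2.95 and 2.24 CPM with the JunD gRNA and 7.39, 5.78 and 7.36 CPM with the Rosa26 gRNA, a log2 fold change of -1.48 ± 0.18 (adjusted p = 0.115). Plau, the urokinase gene, had 3.04, 3.31 and 2.36 CPM with the JunD gRNA and 5.18, 5.18 and 5.08 CPM with the Rosa26 gRNA (-0.82 ± 0.16, adjusted p = 0.417). In all 3 the groups lay far apart and Rosa26 gRNA replicate 1 stood with the other controls. Spp1, Cd44, Itga2 and Slc7a11 were the others that fell and Krt8 and Krt18 those that rose, named after their values were seen.

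**Figure D4:**
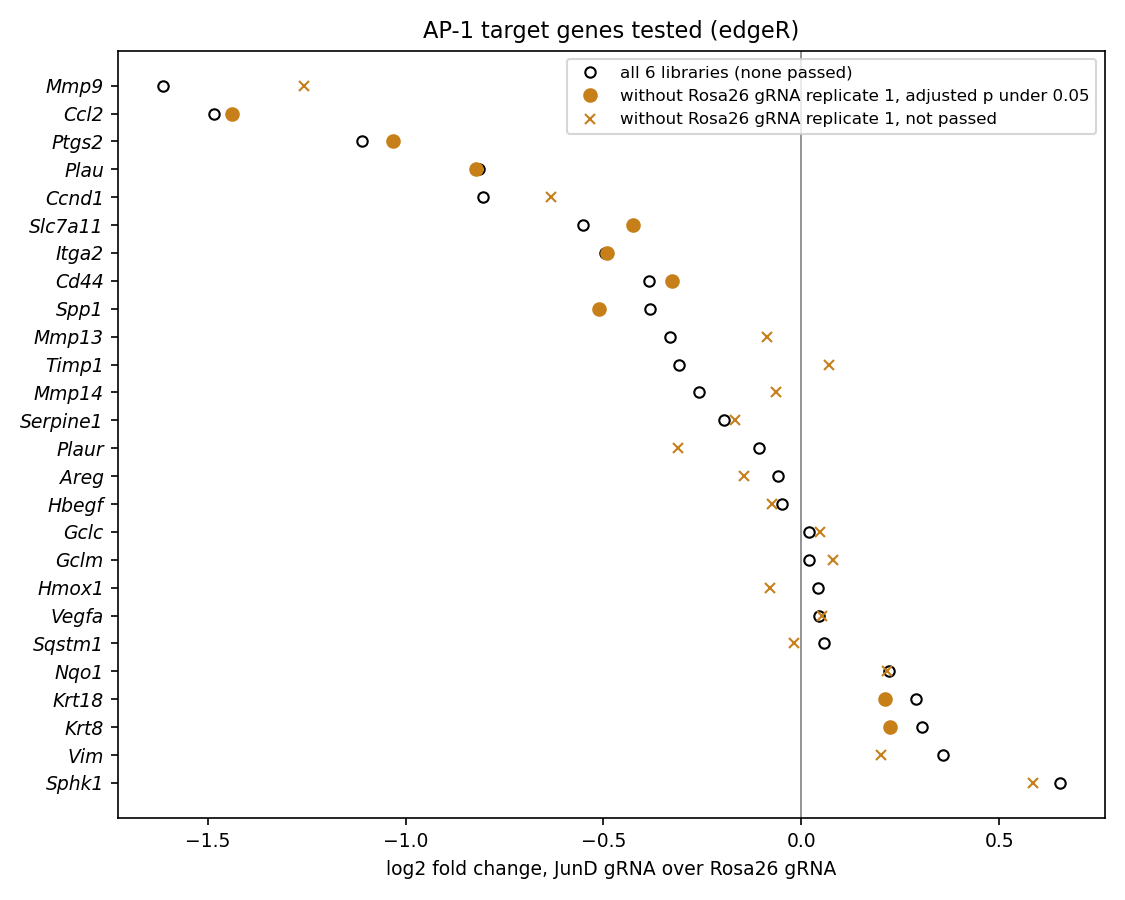
Log2 fold change (JunD gRNA over Rosa26 gRNA) of the 26 AP-1 target genes tested, with all 6 libraries (open circles) and without Rosa26 gRNA replicate 1 (filled where the adjusted p was under 0.05, crosses otherwise). The lowest called values are those of Ccl2 (-1.44) and Ptgs2 (-1.03), and the Mmp9 value, further left with all libraries, was not called in either fit.

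Each of the other lists held at most 1 call in each direction on 5 libraries, where 1.45% of all genes were called higher and 1.4% lower. Of 31 further basic leucine zipper genes, 28 were tested on 6 libraries and 29 on 5, of which 1 rose and 1 fell. Mafa, an activator of insulin transcription, rose (log2 fold change 0.47 ± 0.06 on 5 libraries, edgeR adjusted p = 0.000117), with 273, 274 and 338 CPM with the JunD gRNA and 172, 220 and 208 CPM with the Rosa26 gRNA. Atf6, a sensor of endoplasmic reticulum stress, fell by 0.18 ± 0.04 on 5 libraries (adjusted p = 0.0165). It had 207, 201 and 196 CPM with the JunD gRNA and 271, 228 and 230 CPM with the Rosa26 gRNA. The value of 271 CPM was that of replicate 1, which that fit left out. Atf5 had a log2 fold change of 0.15 ± 0.05 and did not pass (adjusted p = 0.0968).

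Of 32 JNK, ERK and p38 pathway genes tested on 5 libraries, 1 rose and 0 fell, against 1.45% and 1.4% of all genes. Map2k2, the kinase MEK2 that activates ERK, rose by 0.20 ± 0.05 (edgeR adjusted p = 0.0216), while its level of 97.6 CPM in Rosa26 gRNA replicate 1 lay under the 129 to 156 CPM of the other 5 libraries. Dusp16, a JNK phosphatase, and Map3k11, a kinase upstream of JNK, had log2 fold changes of -0.22 and 0.17 and did not pass (adjusted p = 0.142 and 0.087). Of 23 cofactor and turnover genes tested, 0 passed on 5 libraries. Men1, whose product menin binds JunD, had 109, 112 and 120 CPM with the JunD gRNA and 82.4, 103 and 104 CPM with the Rosa26 gRNA, a log2 fold change of 0.14 ± 0.05 on 5 libraries (adjusted p = 0.133). Itch, a ubiquitin ligase of Jun proteins, had a log2 fold change of -0.17 (adjusted p = 0.146). Of 22 tested regulators and companions of Fos and Jun induction, Klf6 fell by 0.29 ± 0.06 (adjusted p = 0.0141) and 0 rose, against 1.4% and 1.45% of all genes. Srf, the serum response factor that drives Fos, and Mrtfb, its coactivator, had log2 fold changes of 0.18 and -0.20 and did not pass (adjusted p = 0.105 and 0.1).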

How the data were processed

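Total RNA was column-extracted and sequenced on Illumina libraries, per the labels' protocols. The authors deposited raw counts per Ensembl gene, 1 table a library. TopHat2, featureCounts and mm10 are named in the submitters' processing notes, while their versions, the gene annotation, the use of strand and the treatment of multi-mapped reads were not given in the sources used here. Of 53379 identifiers, 53274 matched a symbol (50604 with version). Lengths, GC content and positions came from GENCODE M21 (GRCm38), upstream sequences from RefSeq (GRCm38.p6). No libraries agreed within sampling noise (chi-square per degree of freedom 3.27 or more).

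Fits used edgeR 4.0.16 (TMM, filterByExpr, quasi-likelihood, group as sole term) in R 4.3.3, on all genes, with two-sided p-values adjusted by Benjamini-Hochberg. SE is the log2 fold change over the root of F, and is approximate. Alternatives were DESeq2 1.42.0, limma 3.58.1 (voom), other factors and filters, a replicate block, libraries left out, and spline offsets (5 degrees of freedom) for GC content and length. Low counts limit Fosl1 and Jdp2 most. The procedure was tested on simulated data with the same spread in every library, no outlying library and no GC trend. That test therefore does not bear on Rosa26 gRNA replicate 1. Shares are counts per kilobase over their sum, compared by exact permutation with no adjustment, since none can pass. Levels for likeness were log2(TMM-scaled CPM + 0.5). Named genes were the members, the 3 smallest p of each list, and the 5 genes most like Jund, clone names left out. Listed genes called on 5 libraries were added after their values were seen. Members and lists were chosen with earlier results of these data known.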

Additional observations from a re-analysis of the deposited data

How the results depend on the processing

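Jund and Atf3 stayed below the control under all 16 alternatives, and each passed under 5. Jund passed without a count filter (-0.45), in DESeq2 (-0.47), in limma-voom with sample weights (-0.41) and with GC and length corrected on 5 libraries (-0.51), and ranged from -0.54 to -0.38 with 1 library left out, passing there only without Rosa26 gRNA replicate 1. Atf3 passed in DESeq2 (-0.37), with sample weights (-0.42) and with GC and length corrected on 6 (-0.44) and 5 libraries (-0.41), and ranged from -0.41 to -0.32 with 1 library left out. Over the 16, adjusted p ran from 1.88e-05 to 0.774 for Jund and from 2.68e-05 to 0.774 for Atf3. Genes called higher and lower numbered 33 and 53 without a count filter, 20 and 47 in DESeq2, 131 and 162 with sample weights, 2 and 9 with GC and length corrected on 6 libraries and 389 and 207 on 5, and 0 to 266 and 0 to 257 with 1 library left out. In the 5 lists the calls were 6, 6, 12, 2 and 15 in those settings and 0 to 13 with 1 library left out. The share of higher calls on 5 libraries, 50.9%, became 65.3% after the correction. The Jund share differed by -1.49 points without length scaling and by -4.95 among the 3 Jun genes. Signs of uncalled members turned. For Jun they were -0.0021 with upper-quartile factors, -0.050 with sample weights, -0.12 and -0.043 with the correction on 6 and 5 libraries, and -0.089 to 0.070 with 1 library left out. Others were Junb (-0.051 and -0.012 with the correction on 6 and 5), Atf2 (0.041 and 0.088 likewise), Fosl2 (0.018 with sample weights, 0.025 with the correction on 5, -0.053 to 0.018 with 1 left out), Fosb (-0.086 to 0.031), Fosl1 (-0.22 to 0.014) and Jdp2 (-0.16 to 0.064), the last 3 with 1 left out. The cause was not tested. The replicate numbers are not stated to pair samples, and same-numbered libraries deviated together with correlations of 0.0537, -0.0357 and 0.0717. With the replicate block 0 genes were called, and Jund had a log2 fold change of -0.46 (adjusted p = 0.319). Libraries do not all correlate best with their own number.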
